A study of Drosophila melanogaster with 72 samples.

Results

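The Tweedle and Osiris genes were followed in whole female Drosophila melanogaster. Members were all genes of the BDGP6.54 annotation whose FlyBase symbol begins with Twdl, or with Osi and a digit. This gave 51 genes, 26 Tweedle and 25 Osiris. All 51 were among the 23932 features of the count table of the Lpp[TS] lines. In each of the 2 tables of the Lsp2 alleles 50 of them were among 13925 features, and TwdlU, annotated as a pseudogene, was not listed. The libraries came from ground flies, with total RNA from part of the powder and monosome and polysome fractions from a sucrose gradient of the rest, all poly(A) selected.

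At 15 d of age the allele lines were Thor[2];Lsp2[A10] (called Thor[2] A10 here), Thor[2];Lsp2[B14] (Thor[2] B14), Lsp2[A10] (A10) and Lsp2[B14] (B14), with 3 replicates in each fraction. A10 and B14 were also sampled at 2 to 3 d (young), with 3 replicates in each fraction. All of these lines carry an Lsp2 allele, and the labels do not say which allele serves as a control or whether the alleles are homozygous. A further set of 15 d lines, with 2 replicates in each fraction, shares Lpp[TS]. These are Lpp[TS]>Rheb, Lpp[TS]>Lsp2 and, as their control, Lpp[TS]>w1118. In fly notation the element before the sign is a driver and the name after it the construct it turns on. Lpp encodes the main lipoprotein of the fat body, but the promoter and the cell type of the driver are not given in the labels. The series has 72 libraries, of which 24 are total RNA.

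Both families belong to the making of the insect cuticle, the chitin and protein coat that the epidermis, the trachea and the sensory hairs lay down on their outer face before each moult and in the late embryo. Tweedle proteins are secreted structural cuticle proteins, and a dominant allele of TwdlD, Tubby, makes larvae and pupae short and squat. Osiris proteins are insect-specific membrane proteins of the secretory and endosomal system in cuticle-making cells. Osi23, also called gore, is needed for the pores in the cuticle of olfactory hairs, and most Osiris genes lie in the cluster that holds the dosage-sensitive Triplo-lethal locus. Their RNA is known mainly from embryos and pupae, and adult flies make little new cuticle.

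Whole-body values cannot tell fewer cells of a type apart from less RNA per cell. Total counts were 15.3 to 39.7 M (M, mega) in total RNA libraries, 5.07 to 21.3 M in monosome libraries and 3.13 to 31.3 M in polysome libraries. Levels are given in CPM, the count scaled to a library total of 1 M. Among the genes named in the genotypes, Lsp2 stood at 6609 to 7686 CPM in Lpp[TS]>Lsp2 and at 2268 to 2578 CPM in Lpp[TS]>Rheb, against 4.49 to 5.23 CPM in Lpp[TS]>w1118. In the allele lines it was at most 10.8 CPM except in replicate 3 of 15 d B14, at 52.1 CPM. Rheb stood at 879 to 967 CPM in Lpp[TS]>Rheb, against 125 to 126 CPM in Lpp[TS]>w1118. Thor, which encodes the translational repressor 4E-BP, was not lower in the libraries labelled Thor[2]. It had 253 to 364 CPM in Thor[2] A10 and 257 to 309 CPM in Thor[2] B14, against 221 to 291 CPM in A10 and 248 to 286 CPM in B14. Thor[2] below is therefore the label, and every direction drawn from it is a difference between libraries so labelled. The batch entry of the labels repeats genotype and fraction, so a batch cannot be told apart from a group. Some libraries stood apart. The Thor[2] A10 monosome library of replicate 1 held 92.9% of the 13925 genes at 1 CPM or more, with 48 of the 50 listed members. Replicate 2 held 84.7% of the genes, against at most 73.8% in any other library.

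The members lie in a few tight clusters of the BDGP6.54 annotation. On chromosome arm 3R, 22 Osiris genes occupy positions 6173549 to 6341424. A second cluster of 13 Tweedle genes, here called the Tweedle block, holds TwdlM, TwdlP, TwdlB, TwdlL, TwdlO, TwdlK, TwdlJ, TwdlN, TwdlH, TwdlR, TwdlS, TwdlD and TwdlQ at 3R, positions 26619118 to 26693590. TwdlU, TwdlF, TwdlG and TwdlV lie at 3R, positions 4243606 to 4255833, and TwdlC and TwdlT at 3R, positions 26994832 to 27051004. TwdlX, TwdlY, TwdlZ and Twdlalpha lie on chromosome X at positions 16731091 to 16744365. TwdlW, TwdlE, Twdlbeta, Osi21, Osi22 and Osi23 lie singly, and Osi21 overlaps mre11 on the opposite strand. The sources used here do not state how the counting treated strand.

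Levels of both families were low. In total RNA, 19 of the 51 genes (8 Tweedle, 11 Osiris) never reached 10 counts in a library, among them Osi23, and Osi11 had no count at all. Only TwdlT, TwdlG, Osi2, Osi19 and Osi24 reached 10 counts in at least 23 of the 24 total RNA libraries. The other 27 genes were present in some libraries and near 0 in others. As a level per length, the mean over the 24 libraries was highest for Osi6 at 9.59 CPM per kb, Osi7 at 4.97, Osi15 at 2.45, TwdlT at 2.05 and TwdlM at 1.89 CPM per kb. TwdlF followed at 1.88, Osi19 at 1.80, Osi14 at 1.61, Osi20 at 1.41 and TwdlD at 1.37 CPM per kb. Replicate 2 of Lpp[TS]>Lsp2 alone carried much of the leading means, which without it were 5.90 CPM per kb for Osi6 and 2.75 CPM per kb for Osi7, still the highest. Osi6 and Osi7 lie side by side in the Osiris cluster, and with Osi8 they are known from knockdown in Drosophila melanogaster to bear on resistance to octanoic acid, the toxin of noni fruit. Most of these means rest on the Thor[2] and Lpp[TS] lines, as the map of levels by library shows.

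**Figure D1:**
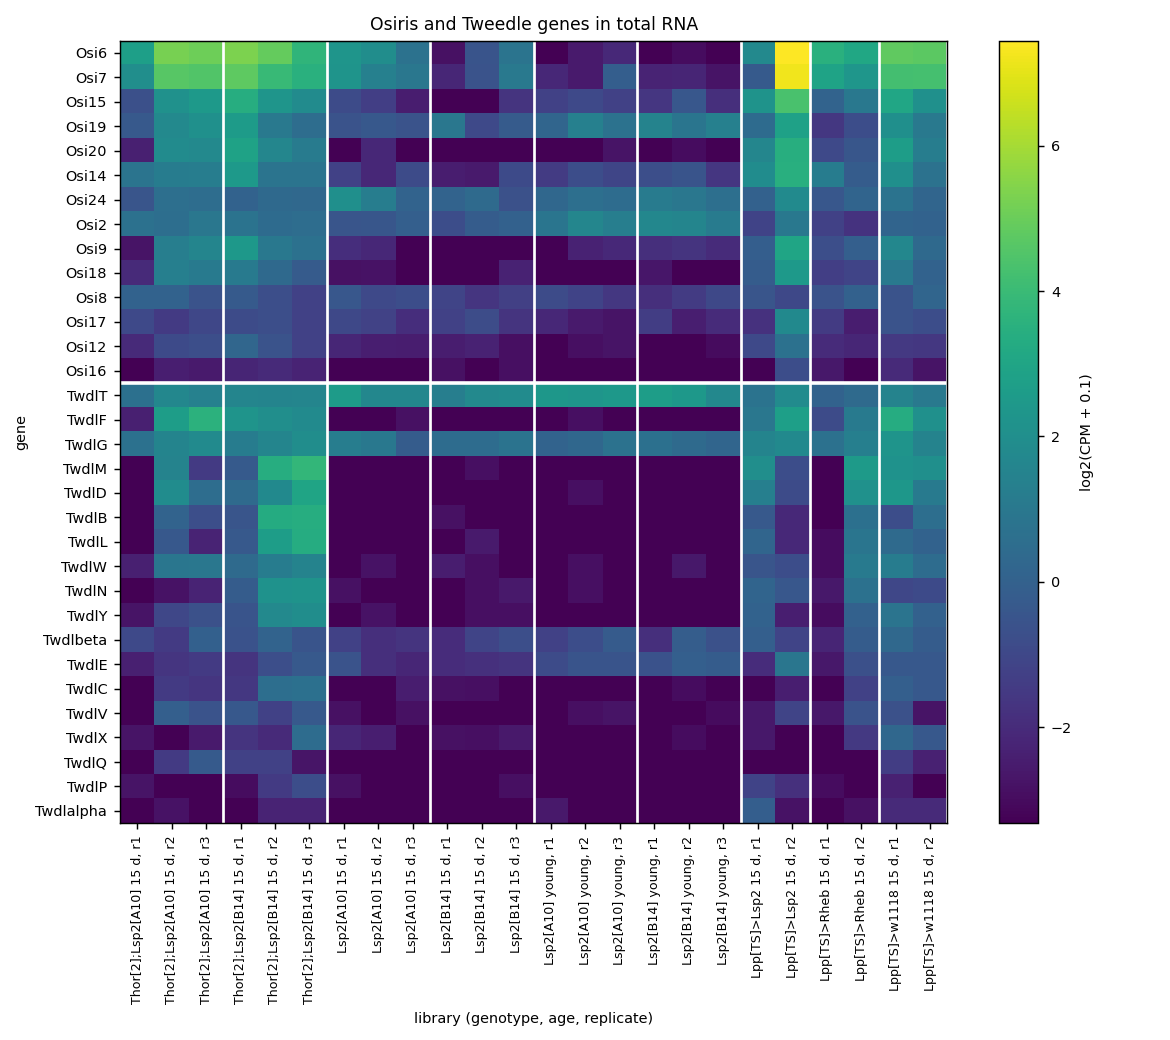
Levels of the members in the 24 total RNA libraries. Rows are genes, columns are libraries by genotype, age and replicate, and the colour is log2(CPM + 0.1); TwdlT, TwdlG, Osi2, Osi19 and Osi24 are coloured across nearly all libraries, while Osi6, Osi7, TwdlF and TwdlM, TwdlD, TwdlB and TwdlL of the Tweedle block are brighter in most libraries of the Thor[2] and Lpp[TS] lines than in A10 and B14.

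The first comparison asked how the members differed between Thor[2] A10 and A10 flies. Members of both families were higher in the libraries labelled Thor[2], and none was called lower. The largest levels were those of the neighbours Osi6 and Osi7. TwdlF and TwdlW, Tweedle genes outside the block, were nearly absent from A10 and from replicate 1 of Thor[2] A10 and present in replicates 2 and 3.

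Osi6 had 6.56, 37.5 and 33.6 CPM in Thor[2] A10 (replicates 1, 2 and 3), against 4.76, 3.77 and 1.55 CPM in A10, a log2 change of 3.15 ± 0.78 (SE; adjusted p = 0.00438). Osi7 had 3.89, 25 and 22.7 CPM in Thor[2] A10, against 4.68, 2.50 and 1.84 CPM in A10 (log2 change 2.72 ± 0.77, adjusted p = 0.00929). In total RNA the Osi6 groups did not overlap, while replicate 1 of Thor[2] A10 lay inside the A10 range for Osi7. Osi15, one of the Osiris genes known from the trachea, had 0.516, 4.29 and 5.59 CPM in Thor[2] A10, against 0.452, 0.297 and 0.0818 CPM in A10 (log2 change 3.84 ± 0.88, adjusted p = 0.00192). Osi14, a further gene of the cluster, had 1.69, 2.19 and 2.23 CPM in Thor[2] A10, against 0.328, 0.127 and 0.450 CPM in A10 (log2 change 2.93 ± 0.66, adjusted p = 0.00138). For both genes the lowest Thor[2] A10 library lay above the highest A10 library in total RNA. In polysomes Osi6 had 2.36, 31.1 and 36.1 CPM in Thor[2] A10, against 3.51, 13.3 and 1.99 CPM in A10. In monosomes it had 5.97, 39.5 and 38.9 CPM in Thor[2] A10, against 3.38, 13.3 and 2.52 CPM in A10. The Osi6 groups thus overlapped in both gradient fractions.

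TwdlF, a cuticle protein gene, had 0.0938, 6.35 and 12.1 CPM in Thor[2] A10, against 0, 0 and 0.0409 CPM in A10 (adjusted p = 0.00195). That is 487 counts in Thor[2] A10 and 1 count in A10, a ratio of 487 with a 95% interval of 87.0 to 19275 that covers counting error only. TwdlW had 0.0938, 1.76 and 1.80 CPM in Thor[2] A10, against 0, 0.0424 and 0 CPM in A10 (93 counts and 1 count, adjusted p = 0.000388). TwdlD, the Tubby gene, had 0, 3.65 and 1.33 CPM in Thor[2] A10 and no count in A10. Set against a floor of 3 counts over the A10 libraries, it was at least 40.7-fold higher, and TwdlB was at least 12.3-fold higher (adjusted p = 0.0414 for TwdlB). The TwdlB call was lost with any A10 library, or with replicate 2 or 3 of Thor[2] A10, left out (adjusted p = 0.0689 to 0.118).

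Of the 50 listed members 26 passed the low-count filter and were tested. Altogether 17 of the 26 rose in Thor[2] A10, 7 Tweedle and 10 Osiris genes, with an adjusted p under 0.05 by edgeR, and 0 fell. Of all 10354 genes tested, 34.4% rose by the same rule. Members near 0 in A10 and B14 passed the filter only through the Thor[2] libraries, where they are high, so nothing is read from the share of members called. The median log2 change over all genes tested was 0.04. The members called beside those above were Osi2, Osi9, Osi12, Osi18, Osi19, Osi20, TwdlV, TwdlY and Twdlbeta. The calls of Osi12, TwdlY and Twdlbeta were lost in some fits that left out 1 library, with adjusted p up to 0.0793, 0.0517 and 0.327. Osi20 had 0.0938, 3.52 and 3.24 CPM in Thor[2] A10, against 0, 0.127 and 0 CPM in A10. Osi2, by contrast, was steady at 1.5, 1.37 and 1.80 CPM in Thor[2] A10, against 0.616, 0.636 and 0.859 CPM in A10 (log2 change 1.34 ± 0.31, adjusted p = 0.0017). The CPM ranges of the groups did not overlap for 10 of the 26 members tested, against 28.7% of all genes tested in that direction. The filter bears on that share as well, so nothing is read from it. Replicate 1 of Thor[2] A10 was the low library for most members, and 19 members rose in a fit without it. With polysome libraries in place of total RNA, Osi2, Osi6, Osi7, Osi15, Osi19, TwdlB, TwdlD, TwdlV, TwdlY and Twdlbeta were not called. With monosome libraries Osi6, Osi19, TwdlV and Twdlbeta were not called. The other members called kept their call in these fractions where they could be tested.

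Between Thor[2] B14 and B14 flies members of both families were again higher in the libraries labelled Thor[2]. Osi6 and Osi7 had the highest levels, and TwdlM, TwdlB, TwdlL, TwdlN and TwdlD of the Tweedle block, nearly silent in B14, were present in all Thor[2] B14 libraries. Other genes of the block stayed near 0 in both lines, and TwdlK and TwdlR had no count in Thor[2] B14. Here 21 of the 26 members tested rose, 10 Tweedle and 11 Osiris genes, and 0 fell, while 35.2% of all genes tested rose. The filter bears on this share in the same way.

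Osi6 had 39.7, 29.6 and 13.2 CPM in Thor[2] B14, against 0.0403, 0.605 and 1.66 CPM in B14 (log2 change 5.26 ± 0.91, adjusted p = 0.000422). Osi7 had 27.6, 15.4 and 11.4 CPM in Thor[2] B14, against 0.121, 0.569 and 1.94 CPM in B14 (log2 change 4.48 ± 0.87, adjusted p = 0.000925). The groups were well apart for both genes. Osi15 had 10.3, 4.80 and 3.52 CPM in Thor[2] B14, against 0, 0 and 0.204 CPM in B14 (log2 change 6.50 ± 1.04, adjusted p = 0.000116). Osi20 had 7.23, 2.95 and 2.16 CPM in Thor[2] B14 and no count in B14, which makes it at least 126-fold higher against the floor of 3 counts over the group (adjusted p = 0.00058). Osi9, another gene known from the trachea, had 5.19, 1.89 and 1.52 CPM in Thor[2] B14 and no count in B14, at least 88.1-fold higher (adjusted p = 0.000786). In each of these Osiris genes replicate 1 of Thor[2] B14 was the highest.

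The 5 genes of the Tweedle block present in Thor[2] B14 showed another order of the same libraries. TwdlM had 0.738, 10.3 and 14.1 CPM in Thor[2] B14, against 0, 0.0356 and 0 CPM in B14 (569 counts and 1 count, adjusted p = 0.00478). TwdlB had 0.620, 9.72 and 10.3 CPM in Thor[2] B14, against 0.0403, 0 and 0 CPM in B14 (479 counts and 1 count, adjusted p = 0.000728). TwdlL had 0.708, 6.37 and 10.1 CPM in Thor[2] B14, against 0, 0.0712 and 0 CPM in B14 (adjusted p = 0.000627). Replicate 1, the highest for Osi6, was the lowest of the 3 for each of these block genes. TwdlN had 0.767, 4.37 and 4.55 CPM in Thor[2] B14, against 0, 0.0356 and 0.0679 CPM in B14 (log2 change 6.39 ± 0.86, adjusted p = 2.11e-05). TwdlD had 1.24, 3.31 and 7.74 CPM in Thor[2] B14 and no count in B14, at least 94.9-fold higher (adjusted p = 0.00747). TwdlQ, a block gene of low level, had 0.325, 0.328 and 0.0541 CPM in Thor[2] B14, with replicate 3 the lowest.

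The neighbours TwdlF and TwdlG, outside the block, were more even across the replicates of Thor[2] B14. TwdlF had 4.72, 3.89 and 3.46 CPM in Thor[2] B14 and no count in B14, at least 114-fold higher (adjusted p = 0.00259). TwdlG had 2.21, 2.91 and 3.73 CPM in Thor[2] B14, against 1.29, 1.32 and 1.63 CPM in B14 (log2 change 1.18 ± 0.37, adjusted p = 0.0119). TwdlT, among the members present in nearly all libraries, had 2.86, 2.84 and 2.92 CPM in Thor[2] B14, against 2.34, 3.27 and 3.60 CPM in B14, a log2 difference of 0.04 ± 0.31 that did not pass the test. The groups did not overlap for 21 of the 26 members tested, all higher in Thor[2] B14, against 31.3% of all genes tested in that direction. Members near 0 in B14 passed the filter only through the Thor[2] libraries, so nothing is read from that share. Osi8 passed with a log2 change of 1.03 ± 0.43 (adjusted p = 0.0455). Its call was lost with any single library left out except replicate 3 of Thor[2] B14 (adjusted p = 0.0551 to 0.253), and in monosome libraries its log2 difference was -0.058 (adjusted p = 0.963). Osi19 had 5.90, 1.97 and 1.35 CPM in Thor[2] B14, against 1.81, 0.427 and 0.747 CPM in B14 (log2 change 1.83 ± 0.67, adjusted p = 0.0264). Without replicate 1 of Thor[2] B14, or replicate 2 or 3 of B14, Osi19 was not called (adjusted p = 0.0850 to 0.261). With polysome libraries in place of total RNA, Osi2, Osi8, Osi19 and TwdlG were not called. With monosome libraries Osi2, Osi8, Osi18 and TwdlG were not called. The other members called kept their call in these fractions where they could be tested.

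Of the members called, 16 were called in both allele backgrounds, Twdlbeta in A10 alone and Osi8, TwdlG, TwdlL, TwdlM and TwdlN in B14 alone. The 2 comparisons use separate libraries but share a fit. Of all genes tested 34.4% and 35.2% rose in them, and the share that rose in both is not given here. Members near 0 in A10 and B14 passed the filter only through the Thor[2] libraries, so nothing is read from the overlap. The difference between the 2 comparisons was tested as an interaction. There 0 members passed by edgeR, 0 had an unadjusted p under 0.05 and 0 passed by DESeq2. In that interaction 4.1% of all genes were called.

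**Figure D2:**
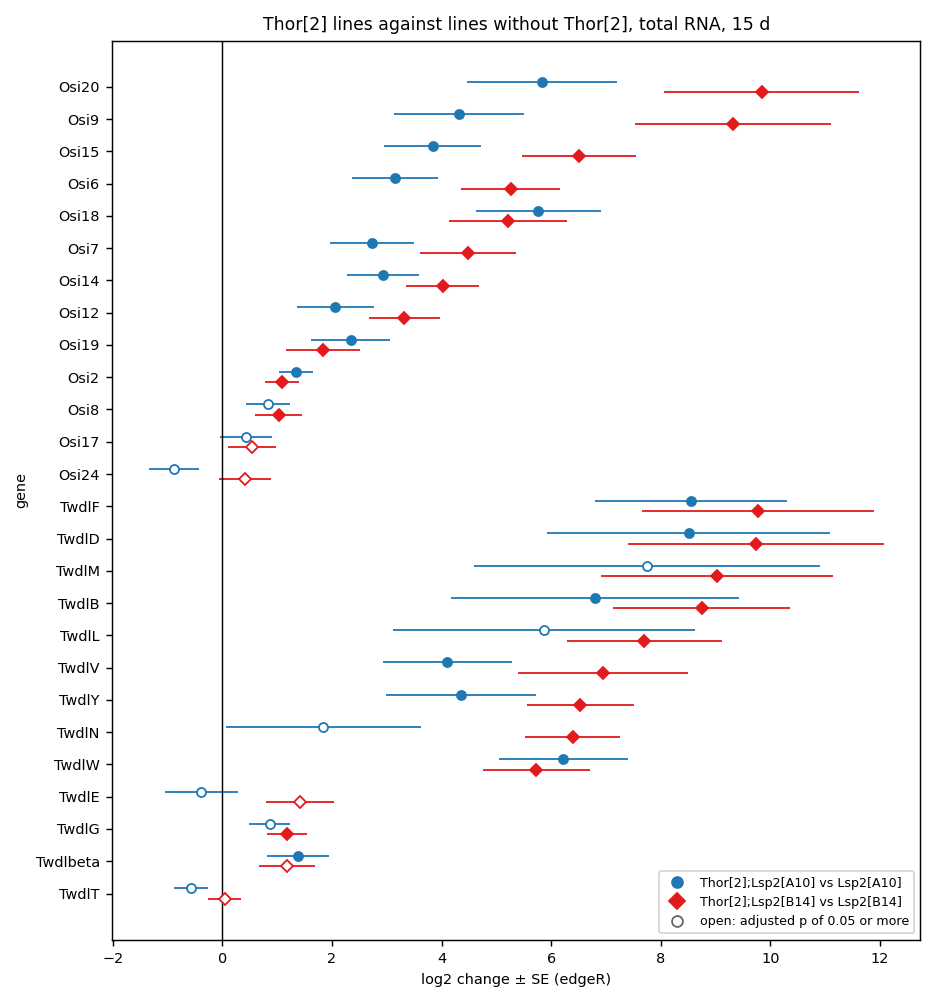
Log2 change with its SE in total RNA at 15 d, for Thor[2] A10 against A10 (circles) and Thor[2] B14 against B14 (diamonds), one row per member tested. Filled symbols have an adjusted p under 0.05, 17 for A10 and 21 for B14, all of them right of 0; fitted values of genes with no count in A10 or B14 depend on the prior count of the fit and are no measure of size.

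Other cuticle genes, taken from lists, did not all move the same way between the same groups. Of all genes tested, 34.4% rose in Thor[2] A10 against A10 and 35.2% in Thor[2] B14 against B14. The share that fell is not given here. Only genes that passed the filter could be called, 41 of the 97 Cpr-type genes. Of 97 Cpr-type cuticle protein genes, which encode the large family of chitin-binding cuticle proteins and here include the larval Lcp genes, 25 rose and 2 fell in Thor[2] A10 against A10, and 28 rose and 2 fell in Thor[2] B14 against B14. The median log2 change of the 41 tested was 1.35 and 1.55 in these comparisons. Their summed level was 369 to 401 CPM in Thor[2] A10 and 432 to 473 CPM in Thor[2] B14, against 171 to 249 CPM in A10 and 235 to 245 CPM in B14. Of 18 genes of chitin synthesis and assembly, 6 rose and 1 fell in Thor[2] A10, near the share of all genes, and 10 rose and 1 fell in Thor[2] B14. They summed to 732 to 763 CPM in Thor[2] A10 and 698 to 713 CPM in Thor[2] B14, against 582 to 679 CPM in A10 and 550 to 570 CPM in B14. Of 9 apical matrix genes of the zona pellucida domain type, 1 rose and 1 fell in Thor[2] A10, and 5 rose and 2 fell in Thor[2] B14. In sum this list was lower, at 51.9 to 75.2 CPM in Thor[2] A10 and 54.8 to 60.9 CPM in Thor[2] B14. It had 87.1 to 121 CPM in A10 and 70.4 to 125 CPM in B14. Of 8 tanning genes, 4 rose and 2 fell in Thor[2] A10, and 3 rose and 2 fell in Thor[2] B14. Their sums overlapped, at 160 to 196 CPM in Thor[2] A10 and 144 to 190 CPM in Thor[2] B14, against 157 to 193 CPM in A10 and 152 to 179 CPM in B14. Markers of early embryos moved as well. The summed level of 20 early zygotic genes was 116 to 146 CPM in Thor[2] A10 and 82.2 to 128 CPM in Thor[2] B14, against 251 to 280 CPM in A10 and 205 to 263 CPM in B14, with 8 genes higher and 3 lower in Thor[2] A10 and 2 higher and 3 lower in Thor[2] B14. Between 1 and 7 of the 20 were at 0 in a library of these groups. Larval cuticle genes, 15 in number, summed to 1.59 to 2.44 CPM in Thor[2] A10 and 2.95 to 16.1 CPM in Thor[2] B14, against 0.818 to 1.15 CPM in A10 and 0.170 to 0.819 CPM in B14, with 6 to 13 of them at 0. The part of embryos or of other cuticle-making cells in the differences of the members was not tested.

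The next comparison set Thor[2] A10 against Thor[2] B14. Osi6, Osi7 and the other Osiris genes showed no called difference. Genes of the Tweedle block and TwdlY were lower in Thor[2] A10. In all, 0 of the 26 members tested were higher and 3 were lower, against 1.77% of all genes tested that were lower. These 3, TwdlN, TwdlY and TwdlL, passed the low-count filter only through the Thor[2] B14 libraries, where they are high. Nothing is therefore read from this share.

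TwdlN had 0, 0.0429 and 0.108 CPM in Thor[2] A10, against 0.767, 4.37 and 4.55 CPM in Thor[2] B14. These are 4 counts in Thor[2] A10 and 230 counts in Thor[2] B14, a ratio of 0.0192 with a 95% counting interval of 0.00518 to 0.0498 (adjusted p = 0.00138). TwdlY, a Tweedle gene of the X chromosome group, had 0.0469, 0.386 and 0.541 CPM in Thor[2] A10, against 0.590, 3.24 and 3.79 CPM in Thor[2] B14, a log2 change of -2.84 ± 0.68 (adjusted p = 0.0305). TwdlL had 0, 0.686 and 0.108 CPM in Thor[2] A10, against 0.708, 6.37 and 10.1 CPM in Thor[2] B14, a log2 change of -4.35 ± 1.05 (adjusted p = 0.0450). In these 3 genes the groups did not overlap, by a narrow margin for TwdlY and TwdlL. Non-overlap in that direction held for 3 of the 26 members tested and for 10.7% of all genes tested, and the filter bears on this share too. TwdlB, with 0, 0.986 and 0.505 CPM in Thor[2] A10 against 0.620, 9.72 and 10.3 CPM in Thor[2] B14, did not pass (log2 change -3.71 ± 1.02, adjusted p = 0.0852). TwdlM did not pass either, at 0, 2.70 and 0.252 CPM in Thor[2] A10 against 0.738, 10.3 and 14.1 CPM in Thor[2] B14. TwdlN was called in each of the 6 fits that left out 1 library. TwdlY lost its call in all but the fit without replicate 1 of Thor[2] B14 (adjusted p = 0.0518 to 0.142), and TwdlL without replicate 1 or 3 of Thor[2] A10 or replicate 2 or 3 of Thor[2] B14 (adjusted p = 0.0987 to 0.166). The count of members called was 1 in those 4 fits and 5 without replicate 1 of Thor[2] B14. In the polysome fraction TwdlN had 0.301, 0.110 and 1.76 CPM in Thor[2] A10, against 14.6, 16.9 and 0.982 CPM in Thor[2] B14, so replicate 3 of Thor[2] B14 fell inside the Thor[2] A10 range there. Of the Cpr-type genes 1 was higher and 6 were lower in Thor[2] A10, and of the 15 larval cuticle genes 2 were lower.

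**Figure D3:**
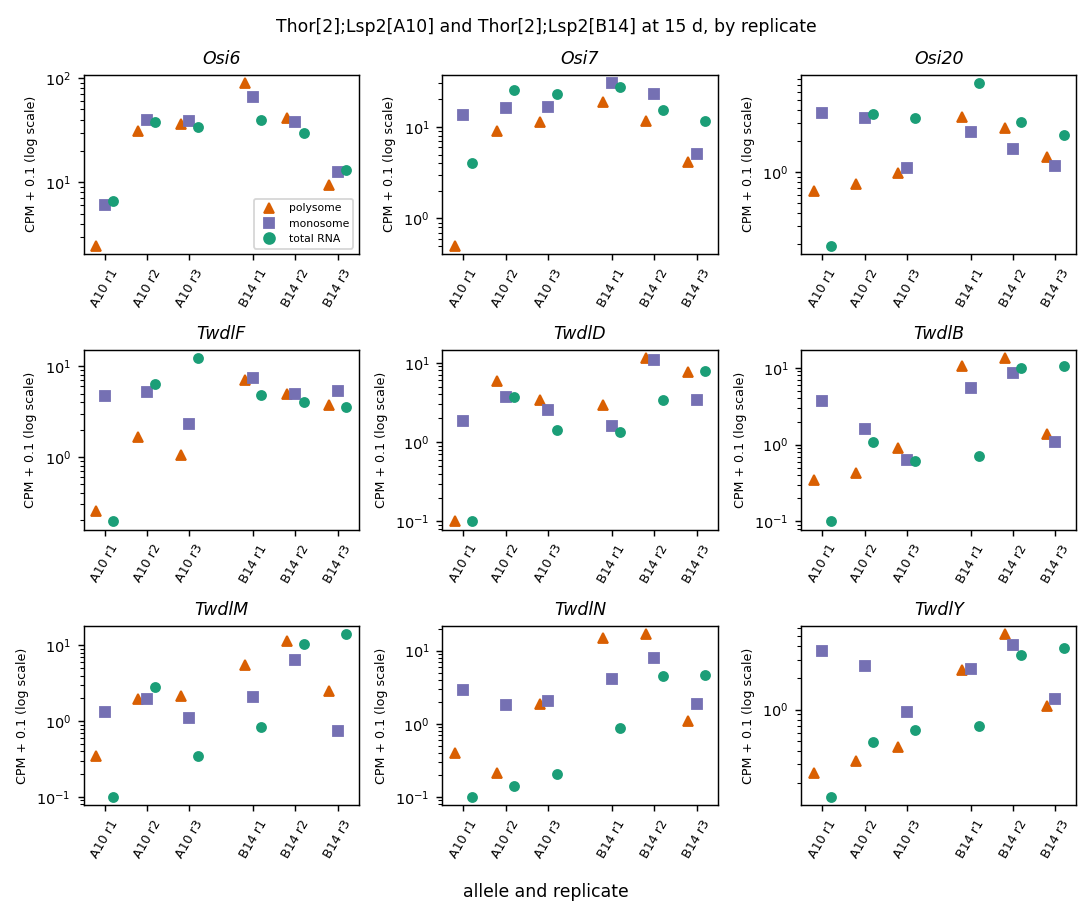
Levels in CPM of 9 members in each replicate of Thor[2] A10 (left) and Thor[2] B14 (right), with total RNA, monosome and polysome libraries as separate symbols. Total RNA of Osi6, Osi7 and Osi20 is highest in replicate 1 of Thor[2] B14, where TwdlM, TwdlB and TwdlN are lowest of that line.

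The members were chosen with their unevenness between replicates known, so their spread is given as a description. The biological coefficient of variation estimated by edgeR over the 15 d total RNA libraries had a median of 0.575 in the 13 Tweedle genes tested and 0.549 in the 13 Osiris genes tested, against 0.120 over all 10354 genes. The 95th percentile of all genes was 0.329, and 11 of the 13 Tweedle and 10 of the 13 Osiris genes lay above it. In the other tables fewer members stood out. In young total RNA the medians were 0.159 in 4 Tweedle and 0.192 in 4 Osiris genes, against 0.103 over all genes, with 1 and 2 of them above the 95th percentile of 0.193. In the Lpp[TS] lines the medians were 0.978 in 15 Tweedle and 0.671 in 12 Osiris genes, against 0.182 over all genes, with 3 and 0 of them above the 95th percentile of 1.10. The largest gaps between replicates of a group, on the log2(CPM + 0.1) scale, were 7.49 for Osi7 and 5.70 for Osi6 in Lpp[TS]>Lsp2, 5.98 for TwdlF in Thor[2] A10, and 5.88 for TwdlM and 5.45 for TwdlD in Lpp[TS]>Rheb.

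Summed over each family, the Osiris and the Tweedle genes did not follow the same order across replicates. The Osiris sum in total RNA was 17.7, 85.7 and 81.3 CPM in Thor[2] A10 and 109, 63.8 and 39.8 CPM in Thor[2] B14, against 7.24 to 17.0 CPM in A10 and 4.59 to 7.24 CPM in B14. The Tweedle sum was 3.84, 24.4 and 25.7 CPM in Thor[2] A10 and 18, 53.4 and 69.1 CPM in Thor[2] B14, against 4.38 to 9.57 CPM in A10 and 4.23 to 6.25 CPM in B14. The ratio of the Osiris to the Tweedle sum was 4.60, 3.52 and 3.17 in the replicates of Thor[2] A10, and 6.08, 1.19 and 0.577 in those of Thor[2] B14. The ratio of the sums in total RNA thus varied less between replicates in Thor[2] A10 than in Thor[2] B14. That does not show a kept balance of the varying genes. In replicate 1 of Thor[2] A10, TwdlG with 32 counts and TwdlT with 31 made up most of the 82 Tweedle counts. TwdlD, TwdlM, TwdlB and TwdlL had no count there, while Osi6 had 6.56 CPM. In polysomes of Thor[2] A10 the ratio was 1.71 in replicate 1 and 3.45 in replicate 3, the reverse order.

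The fractions of the gradient carry the same replicate numbers, and they gave a second view of this order. In Thor[2] B14 the Osiris sum was 147, 85.5 and 39.0 CPM in polysomes and 129, 94.9 and 36.4 CPM in monosomes for replicates 1, 2 and 3, the same order as in total RNA. In Thor[2] A10 the polysome libraries, at 12.7, 62.4 and 68.9 CPM, also had replicate 1 lowest. The monosome libraries of that line did not, with 146, 121 and 80.4 CPM, and these are the libraries with the broad gene content given above. Tweedle sums in Thor[2] B14 were 57.9, 92.9 and 35.7 CPM in polysomes and 39.2, 74.0 and 26.7 CPM in monosomes, with replicate 2 highest in both, while replicate 3 was highest in total RNA.

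**Figure D4:**
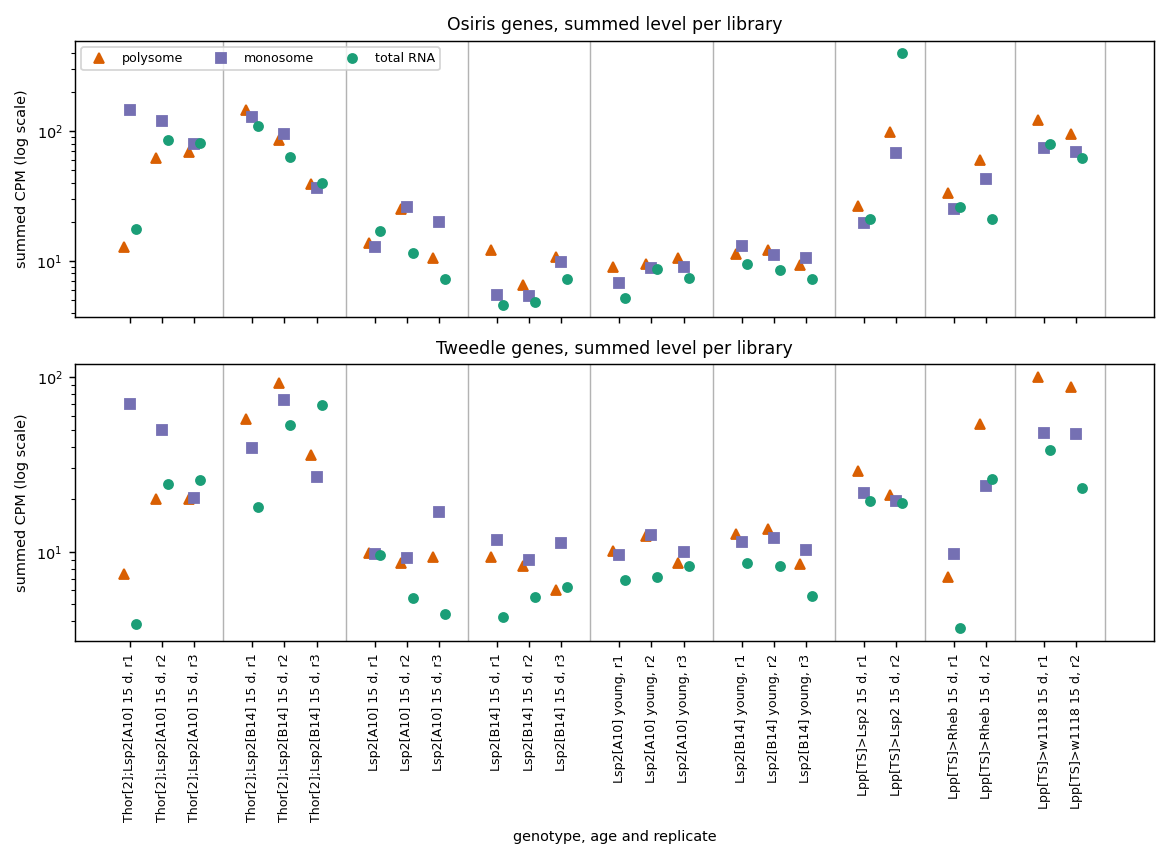
Summed CPM of the Osiris genes and of the Tweedle genes in each library on a log axis, by genotype, age and replicate, with a symbol for each fraction. The Osiris sum of Lpp[TS]>Lsp2 replicate 2 reaches 399 CPM in total RNA, and both families stay under 20 CPM in all A10 and B14 total RNA libraries.

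Without Thor[2], no member was called between the 2 Lsp2 alleles in total RNA. Between A10 and B14 at 15 d, 0 of the 26 members tested were called by edgeR, 1 had an unadjusted p under 0.05 and 0 passed by DESeq2, against 2.21% of all genes tested. The single member was Osi24, with 3.98, 2.29 and 0.982 CPM in A10 and 0.966, 1.21 and 0.544 CPM in B14, which overlap. Several of the 26, such as TwdlD with no count in 15 d A10 or B14, passed the filter only through the Thor[2] libraries. Such members could hardly be called here, so nothing is read from the share of members. In young flies 8 members had enough counts to be tested between A10 and B14. There 0 were called by edgeR, 0 had an unadjusted p under 0.05 and 0 passed by DESeq2, while 0.332% of all genes were called.

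Age was compared within each allele, 15 d against young flies. Each age has its own count table, so the effects of age and of table cannot be told apart. Osi6 was higher and Osi2 lower at 15 d in both alleles. In young flies the Tweedle block, TwdlF and Osi6 had hardly any counts. TwdlT stood at 3.17 to 6.33 CPM there, Osi2 at 1.70 to 3.11 CPM and Osi19 at 1.05 to 2.71 CPM.

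Osi6 had 4.76, 3.77 and 1.55 CPM in 15 d A10, against 0, 0.0702 and 0.139 CPM in young A10 (log2 change 5.21 ± 1.25, adjusted p = 0.0035). In B14 it had 0.0403, 0.605 and 1.66 CPM at 15 d, against 0, 0.0299 and 0 CPM in young flies (log2 change 5.54 ± 1.96, adjusted p = 0.038). Replicate 1 of 15 d B14 lay close to the young libraries, and the B14 call was lost with any other single library left out (adjusted p = 0.0544 to 0.173). Osi7 had 4.68, 2.50 and 1.84 CPM in 15 d A10, against 0.131, 0.0702 and 0.836 CPM in young A10 (log2 change 2.96 ± 0.95, adjusted p = 0.0196). Osi17 passed in A10 as well (log2 change 1.76 ± 0.62, adjusted p = 0.0300), at 0.164 to 0.411 CPM at 15 d against 0.0464 to 0.131 CPM in young flies. Osi7 was not called without replicate 1 at 15 d or replicate 1 or 2 of the young flies (adjusted p = 0.0600 to 0.0960), and Osi17 without replicate 1 or 2 at 15 d or replicate 2 or 3 of the young flies (adjusted p = 0.0757 to 0.112).

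Osi2 moved the other way with little spread. It had 0.616, 0.636 and 0.859 CPM in 15 d A10, against 1.70, 3.02 and 2.37 CPM in young A10 (log2 change -1.92 ± 0.29, adjusted p = 7.25e-05). In B14 it had 0.483, 0.783 and 0.917 CPM at 15 d, against 3.11, 2.90 and 2.12 CPM in young flies (log2 change -1.98 ± 0.28, adjusted p = 4.23e-05). The ages did not overlap in either allele. TwdlE had 0.161, 0.178 and 0.204 CPM in 15 d B14, against 0.565, 0.867 and 0.781 CPM in young B14 (log2 change -2.14 ± 0.50, adjusted p = 0.00385). TwdlT had 2.34, 3.27 and 3.60 CPM in 15 d B14, against 6.33, 5.26 and 3.17 CPM in young B14 (adjusted p = 0.0485), with overlapping ranges. Its call was lost with any single library left out except replicate 3 of the young flies (adjusted p = 0.0545 to 0.156).

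In A10, 3 of the 26 members tested were higher and 1 was lower at 15 d, against 20% and 22.5% of all genes tested. In B14, 1 of the 26 was higher and 3 were lower, against 15.9% and 19.2%. The filter of this fit also covers the Thor[2] libraries. Members near 0 at both ages, such as TwdlB with no count in A10, passed it only through them. They could hardly be called, so nothing is read from these shares. Without young replicate 2 the count in A10 was 2, and without young replicate 1 or 2 that in B14 was 2. The difference between the alleles was tested as an interaction, in which 0 members passed by edgeR, 1 (Osi24) had an unadjusted p under 0.05, and 0.172% of all genes were called. The other cuticle lists differed in direction. Of the 97 Cpr-type genes 2 were higher and 26 lower in A10, and 1 higher and 29 lower in B14, with summed levels of 171 to 249 CPM at 15 d and 904 to 1139 CPM in young A10, and of 235 to 245 CPM at 15 d and 1226 to 1373 CPM in young B14. Of the 18 chitin genes 1 was higher and 13 were lower in each allele. Of the 8 tanning genes 1 was higher and 5 were lower in A10, and 0 were higher and 5 lower in B14. Of the 9 apical matrix genes, by contrast, 5 were higher and 1 was lower in A10, and 0 were higher and 1 lower in B14.

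In the Lpp[TS] lines the question was whether Lsp2 or Rheb expressed under Lpp[TS] went with a change of the members. Both families were present in Lpp[TS]>w1118, at an Osiris sum of 79.2 and 62.7 CPM and a Tweedle sum of 38.2 and 23.1 CPM in total RNA. No member was called in either comparison. The replicates of Lpp[TS]>Lsp2 and of Lpp[TS]>Rheb lay far apart.

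Osi6 had 3.26 and 175 CPM in Lpp[TS]>Lsp2 and 11.4 and 8.33 CPM in Lpp[TS]>Rheb, against 27.9 and 26.8 CPM in Lpp[TS]>w1118. Osi7 had 0.736 and 150 CPM in Lpp[TS]>Lsp2 and 7.60 and 5.01 CPM in Lpp[TS]>Rheb, against 18.6 and 19.3 CPM in Lpp[TS]>w1118. Replicate 2 of Lpp[TS]>Lsp2 had the highest Osi6 and Osi7 levels of all 24 total RNA libraries, while replicate 1 lay below both Lpp[TS]>w1118 libraries. TwdlM and TwdlD of the Tweedle block did not follow. TwdlM had 3.87 and 0.490 CPM in Lpp[TS]>Lsp2, against 4.44 and 3.98 CPM in Lpp[TS]>w1118. TwdlD had 2.40 and 0.446 CPM in Lpp[TS]>Lsp2, against 5.16 and 2.02 CPM in Lpp[TS]>w1118. The ratio of the Osiris to the Tweedle sum was 1.08 and 21.0 in Lpp[TS]>Lsp2, against 2.08 and 2.71 in Lpp[TS]>w1118. By edgeR 0 of the 27 members tested passed, 1 (TwdlX) had an unadjusted p under 0.05, and 0 passed by DESeq2, against 0.0166% of all genes tested. With a replicate of Lpp[TS]>Lsp2 left out, the direction of the members called depended on the replicate kept. They were mostly higher without replicate 1 and lower without replicate 2. In these fits Lpp[TS]>Lsp2 is 1 library, assumed to vary like the libraries of the other groups, so no count of members is read from them. Male marker genes differed between the same replicates. The summed level of 12 accessory gland genes was 6.94 and 0 CPM in Lpp[TS]>Lsp2 (1 and 12 genes at 0), against 3.57 and 7.11 CPM in Lpp[TS]>w1118 (1 and 0 at 0). That of 11 Y-linked testis genes was 4.16 and 0.134 CPM in Lpp[TS]>Lsp2 (0 and 8 at 0), against 0.869 and 1.54 CPM in Lpp[TS]>w1118 (3 and 2 at 0). Replicate 2, with the highest Osi6 and Osi7, was the low library for both lists, and their part in the members' spread was not tested.

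In Lpp[TS]>Rheb the replicates differed in the Tweedle genes instead. TwdlM had 0 and 5.78 CPM in Lpp[TS]>Rheb, against 4.44 and 3.98 CPM in Lpp[TS]>w1118. TwdlD had 0 and 4.29 CPM in Lpp[TS]>Rheb, against 5.16 and 2.02 CPM in Lpp[TS]>w1118. Osi20 was lower in both replicates, at 0.417 and 0.647 CPM in Lpp[TS]>Rheb against 6.37 and 2.26 CPM in Lpp[TS]>w1118, but did not pass (log2 change -2.97 ± 0.82, adjusted p = 0.207). Osi15 had 0.984 and 1.86 CPM in Lpp[TS]>Rheb, against 8.25 and 4.13 CPM in Lpp[TS]>w1118 (log2 change -2.09, adjusted p = 0.381). By edgeR 0 of the 27 members tested passed and 4 had an unadjusted p under 0.05, while 1.53% of all genes tested passed. DESeq2 called 2 members, both lower, and its share of all genes is not given here, so nothing is read from that count. For 16 of the 27 the Lpp[TS]>Rheb libraries lay below both Lpp[TS]>w1118 libraries, against 42.6% of all genes tested. Some members, such as TwdlX, passed the filter only through Lpp[TS]>w1118, where they are high, so nothing is read from this share. Larval fat body genes summed to 842 to 972 CPM in Lpp[TS]>Rheb, against 16.2 to 19.6 CPM in Lpp[TS]>w1118, and accessory gland genes to 0.0596 and 0.0404 CPM in Lpp[TS]>Rheb (10 and 11 of 12 at 0), against 3.57 and 7.11 CPM in Lpp[TS]>w1118. Y-linked testis genes summed to 0.239 and 0.243 CPM in Lpp[TS]>Rheb (7 and 8 of 11 at 0), against 0.869 and 1.54 CPM in Lpp[TS]>w1118. The relation of these lists to the members was not tested.

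Polysome association was measured as the polysome level relative to total RNA in a joint fit of both fractions. At 15 d, over the 12 allele libraries of each fraction, 10 of the 31 members tested were higher in polysomes and 1 was lower, against 41.8% and 40.5% of all genes tested. In young flies, where 12 members could be tested, 7 were higher and 2 lower, against 40.3% and 41.4% of all genes tested. On total RNA alone the filter let through 26 members at 15 d and 8 in young flies. The further members passed only through the polysome libraries, where they are high, so nothing is read from these shares. Members called higher at 15 d were Osi2, Osi4, Osi5, Osi8, Osi9, Osi12, Osi14, Twdlbeta, TwdlV and TwdlX. Those called higher in young flies were Osi2, Osi7, Osi8, Osi9, Osi15, Twdlbeta and TwdlT. Osi6 and the 6 genes of the Tweedle block tested at 15 d did not pass.

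Twdlbeta, a single gene of chromosome arm 2R, had a lowest, median and highest level of 0.667, 1.41 and 2.52 CPM in 15 d polysomes, against 0.161, 0.389 and 0.983 CPM in total RNA (log2 difference 1.93 ± 0.25, adjusted p = 1.24e-07). In young flies it had 1.27, 2.01 and 2.97 CPM in polysomes, against 0.170, 0.510 and 0.808 CPM in total RNA (log2 difference 2.06 ± 0.30, adjusted p = 1.07e-05). The fractions did not overlap in young flies. Osi4 had 0, 0.614 and 2.82 CPM in 15 d polysomes, against 0, 0.0406 and 0.281 CPM in total RNA (log2 difference 3.62 ± 0.52, adjusted p = 5.04e-07). In monosomes, which this test does not use, Osi4 had 33.8 CPM in replicate 1 of Thor[2] A10, the library of broad gene content, and a median of 1.48 CPM over the 12 libraries. Osi5 had 0.167, 0.413 and 0.957 CPM in 15 d polysomes, against 0, 0.0439 and 0.343 CPM in total RNA (log2 difference 2.49 ± 0.43, adjusted p = 7.84e-06). Neither Osi4 nor Osi5 reached 10 counts in a total RNA library. Both passed the low-count filter only through the polysome libraries, where they are high.

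Osi2 was higher in polysomes at both ages, by 0.93 ± 0.17 at 15 d (adjusted p = 1.84e-05) and 0.69 ± 0.16 in young flies (adjusted p = 0.00114) on the log2 scale. Osi8 and Osi9 also passed at both ages, Osi9 with a call that at 15 d was lost in 7 of 12 fits that left out a replicate (adjusted p = 0.0607 to 0.143). TwdlV and TwdlX passed at 15 d, by 1.99 ± 0.71 (adjusted p = 0.0134) and 1.30 ± 0.53 (adjusted p = 0.0277). TwdlV was not called without replicate 1 of B14 (adjusted p = 0.9999), and TwdlX not in 5 of 11 such fits (adjusted p = 0.0513 to 0.236). In young flies TwdlT passed by 0.50 ± 0.17 (adjusted p = 0.0138), Osi15 by 0.94 ± 0.32 (adjusted p = 0.0139) and Osi7 by 1.6 ± 0.61 (adjusted p = 0.0243). Each of these 3 calls was lost in 1 or 2 of 6 fits that left out a replicate (adjusted p up to 0.0898, 0.0545 and 0.0633). TwdlE was the member lower in polysomes at both ages. It had 0, 0.0186 and 0.368 CPM in 15 d polysomes, against 0.0938, 0.205 and 0.704 CPM in total RNA (log2 difference -1.71 ± 0.58, adjusted p = 0.00899), and 0.198, 0.358 and 0.517 CPM in young polysomes, against 0.458, 0.600 and 0.867 CPM in total RNA (log2 difference -0.83 ± 0.26, adjusted p = 0.00728). Osi24 was lower in young polysomes alone by the test, at 0.0762, 0.493 and 1.26 CPM, against 1.11, 1.43 and 2.15 CPM in total RNA (log2 difference -1.48 ± 0.32, adjusted p = 0.00055). The difference between the ages was not tested. Of the 97 Cpr-type genes 37 were higher and 1 lower in 15 d polysomes, and of 8 tanning genes 0 were higher and 6 lower. Between Thor[2] A10 and Thor[2] B14 the polysome level relative to total RNA gave 0 called members by edgeR, 1 (TwdlF) with an unadjusted p under 0.05 and 0 by DESeq2, against 0.0904% of all genes tested. Without replicate 1 of Thor[2] A10 it gave 1 member, lower in Thor[2] A10.

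**Figure D5:**
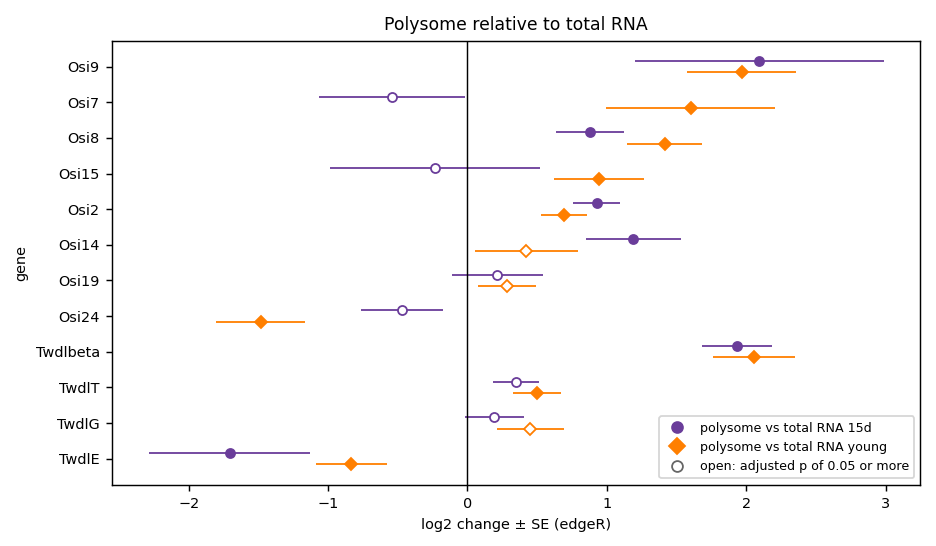
Log2 difference between polysome and total RNA levels with its SE, for 15 d (circles) and young (diamonds) allele libraries, one row per member tested at both ages. Twdlbeta, Osi2, Osi8 and Osi9 are filled and right of 0 at both ages, TwdlE is filled and left of 0 at both ages, and filled symbols mark an adjusted p under 0.05.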

How the data were processed

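Per the labels' protocols, RNA of ground whole flies and of gradient fractions was poly(A) selected and sequenced as paired ends. As deposited by the authors, the 3 tables hold raw, unscaled read counts with a row per gene. The submitters' processing notes name fastp 0.23.2, Bowtie2 2.3.4.1, STAR 2.2.1, featureCounts 1.6.0, R 4.2.0 and the build BDGP6, with no role or order. Strand setting and treatment of overlapping genes are not given in the sources used here. Symbols, exon lengths and coordinates came from the BDGP6.54 annotation, since the tables carry no coordinates. CPM is the count scaled to a library total of 1 M (M, mega).

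All genes of a table were fitted with edgeR 4.0.16 in R 4.3.3 (default expression filter, TMM scaling, quasi-likelihood test, robust dispersions), with a mean per genotype and age over the total RNA libraries of a table. The age fits join the 15 d and young tables. Polysome association is the polysome term of a joint fit with total RNA, without pairing of the fractions by replicate number. SE is the log2 change divided by the square root of F. P-values were adjusted over all genes tested (Benjamini-Hochberg, threshold 0.05). Intervals of count ratios are exact, at 95%, and cover counting error only, since duplicates cannot be told from molecules. DESeq2 1.42.0 and the settings of the closing section were alternatives. The script was tested on simulated data. The labels call the replicates biological without naming separate cultures, so p-values measure the spread between these samples.

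Named genes are members called in a total RNA comparison, the 10 of highest mean CPM per kb, and the 5 with the largest replicate gap (in log2(CPM + 0.1), at 10 or more counts). TwdlG, TwdlX, Osi4, Osi5 and others outside this rule were chosen after their values were seen. Members and lists were chosen with earlier results of these data known. Sequences are not used here.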

Additional observations from a re-analysis of the deposited data

How the results depend on the processing

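Over all alternatives 215 counts of called members were computed, of which 184 lay within 1.5 times the reported count (or stayed at 0), and 848 of 973 values of single called members kept their direction and their side of the threshold. Of the others 1 reversed, Osi8 in Thor[2] B14 against B14, at -0.058 in monosome libraries. A mean count of at least 50, which tests fewer genes, called 0 members in Thor[2] A10 against Thor[2] B14 (3 in the report), 6 in Thor[2] A10 against A10 (17), 7 in Thor[2] B14 against B14 (21), 2 in 15 d against young flies of each allele (4 each), and 1 and 2 in polysomes against total RNA at 15 d and in young flies (11 and 9). With no low-count filter 2 were called between the ages of B14 and 19 in 15 d polysomes. DESeq2 called 7 between the ages of B14 and 2 in Lpp[TS]>Rheb. A fit of only the groups compared, with fewer samples behind the spread, called 1 in Thor[2] A10 against Thor[2] B14, 6 in Thor[2] A10 against A10 and 9 in Lpp[TS]>Rheb. It was not run where the fit already holds only those groups. Monosome libraries in place of total RNA, an alternative added after the data were seen, called 0 in Thor[2] A10 against Thor[2] B14, 1 in A10 against B14 at 15 d, 1 in young flies, 2 in the interaction of Thor[2] and allele, and 1 in that of age and allele. For these the cause was not tested. With single replicates left out, 1 to 5 members were called in Thor[2] A10 against Thor[2] B14. The count was 14 to 19 in Thor[2] A10 against A10 and 20 to 21 in Thor[2] B14 against B14. Between the ages of A10 and of B14 it was 2 to 5. In polysomes it was 8 to 16 at 15 d, 7 to 10 in young flies and 0 to 1 in the comparison of the Thor[2] lines. For the Lpp[TS] lines such fits leave 1 library in a group, and their counts are not given here.

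Same-numbered replicates did not deviate together in every pair (correlations of -0.228 to 0.266 among the 15 d total RNA groups), so the numbers were not taken as pairs. Polysome and total RNA libraries of a number correlated at -0.0627 to 0.186 at 15 d and 0.0152 to 0.406 in young flies. The medians were 0.101 and 0.229, against -0.0487 and -0.0841 for unlike numbers. The main polysome fits leave this pairing out, and the replicate block takes it in. With the replicate block 5 members were called in Thor[2] A10 against Thor[2] B14, 18 in Thor[2] A10 against A10 and 21 in Thor[2] B14 against B14, and no other count changed by over 1.5 times. In Lpp[TS]>Lsp2 and Lpp[TS]>w1118 the correlation was -0.514, and a block with crossed numbers, added after the data were seen, called 0 members. Calls near the threshold were those of Twdlbeta in Thor[2] A10 (lost in 10 of 13 alternatives), Osi8 in Thor[2] B14 (11 of 14), TwdlL and TwdlY in Thor[2] A10 against Thor[2] B14 (9 and 7 of 14), and Osi6 and TwdlT between the ages of B14 (8 of 14 and 10 of 15). Low counts limit the members as well, since 19 genes that never reached 10 counts in total RNA could hold differences not detectable at this depth.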
